A study of Homo sapiens with 5 samples.

Results

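Transcripts of 45 genes of autophagy, aggresome handling and the lysosome were followed in TOV21G cells, an established human ovarian clear cell carcinoma line, after interference with HDAC6. The genes were chosen by name, as the rows of the deposited table that carry 1 of 45 symbols, and all 45 were found among 28442 gene rows. The series is titled for ovarian cancers mutated in ARID1A and their need for HDAC6 activity. Each of its 5 libraries is 1 treatment. A control hairpin (shControl) and a hairpin against HDAC6 (shHDAC6) form the shRNA experiment, in which infected cells were selected with puromycin. The drug vehicle and ACY1215 and CAY10603, small molecules that inhibit HDAC6, form the drug experiment. All cells grew in RPMI medium with fetal bovine serum, and the parental line is shared by every library. The labels call shControl and vehicle the control group (replicates 1 and 2) and shHDAC6, ACY1215 and CAY10603 repressed HDAC6 (replicates 1 to 3). The protocol lists 2 hairpins against HDAC6, and the one in this library is not given in the sources used here, nor are doses and times. Separate cultures are not named for any library. P-values measure only the spread between these 5 libraries, which holds differences between treatments and may in part be technical.

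Macroautophagy encloses cytoplasm in a double membrane and delivers it to the lysosome for breakdown. The ULK1 complex starts the process, the lipid kinase complex around BECN1 marks the membrane, and a ubiquitin-like conjugation system attaches proteins of the ATG8 family to it, where receptors such as SQSTM1 (p62) dock with ubiquitylated cargo. HDAC6 is known for binding ubiquitylated proteins and dynein, carrying aggregates along microtubules to the aggresome, and helping autophagosomes fuse with lysosomes. TFEB, TFE3 and MITF are transcription factors that bind E-boxes in the promoters of lysosomal genes, the basis of the CLEAR gene network. These roles are carried out by proteins, and only transcript levels were measured here.

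The E-box was looked for first in the promoters, because it is a property of the genes that no count enters. RefSeq promoters (GRCh38.p14, 250 bases before to 50 after each start) were found for 37 of the 45 genes, and a gene with several entries was counted once. None was at hand for RB1CC1, UVRAG, LAMP2, ATP6V1A, ATP6V1H, CTSB, HEXA and PSAP. The letters CACGTG, which read the same on both strands, occurred in 9 of the 37 (24.3%) and in 8.77% of all 27305 genes with a promoter. TCACGTG on either strand, which contains CACGTG, occurred in the same 9 genes (24.3%) and in 4.49% of all. The 9 are ATG3, ATG14, LAMP1, MCOLN1, ATP6V0D1, CTSA, CTSD, GAA and NEU1. LAMP1 held 6 sites, centred at -190, -174, -156, -140, -25 and 2 bases from its start. GAA (-73 and -28), ATG3 (-16 and 8), CTSA (-40 and -22) and MCOLN1 (-38 and -11) held 2 each. ATP6V0D1 (-56), CTSD (-44), ATG14 (-18) and NEU1 (-124) held 1 each. A match is a description of letters and not a site of binding. The genes were chosen by name and include lysosomal genes, whose CLEAR network rests on this motif. The higher share may come with that choice and was not tested. Shown are LAMP1, for its row of sites, then ATP6V0D1, CTSD and GAA, whose transcripts stood highest in the shHDAC6 library. MAP1LC3B, the gene with the widest spread over the libraries, holds none and is shown last. ATP6V0D1, CTSD, GAA and MAP1LC3B were thus picked by their counts. The promoters of ATG3 and CTSA, whose transcripts were lower in shHDAC6 than in shControl, are not shown. Capitals mark TCACGTG on either strand, which on the opposite strand reads CACGTGA, and overlapping matches are merged.
LAMP1 (chr13:113296989-113297288, plus strand): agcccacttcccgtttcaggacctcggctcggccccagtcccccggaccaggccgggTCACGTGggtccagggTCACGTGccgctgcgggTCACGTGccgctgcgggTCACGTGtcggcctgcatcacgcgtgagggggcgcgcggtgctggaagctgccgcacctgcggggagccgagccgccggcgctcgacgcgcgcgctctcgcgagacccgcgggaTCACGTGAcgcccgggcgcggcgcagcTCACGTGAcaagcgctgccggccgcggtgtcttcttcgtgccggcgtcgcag
ATP6V0D1 (chr16:67481108-67481407, minus strand): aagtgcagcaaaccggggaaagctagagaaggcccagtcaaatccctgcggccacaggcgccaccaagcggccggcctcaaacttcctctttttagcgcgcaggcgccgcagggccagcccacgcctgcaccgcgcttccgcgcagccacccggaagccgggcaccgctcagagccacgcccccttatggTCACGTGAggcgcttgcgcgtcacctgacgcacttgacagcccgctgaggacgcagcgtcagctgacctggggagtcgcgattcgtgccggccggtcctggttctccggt
CTSD (chr11:1763878-1764177, minus strand): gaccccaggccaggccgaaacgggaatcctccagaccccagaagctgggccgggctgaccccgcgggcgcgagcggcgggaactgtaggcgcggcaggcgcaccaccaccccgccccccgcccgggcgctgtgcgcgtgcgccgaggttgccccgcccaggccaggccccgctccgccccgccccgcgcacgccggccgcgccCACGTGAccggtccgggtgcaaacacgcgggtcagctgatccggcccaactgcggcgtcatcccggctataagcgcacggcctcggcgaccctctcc
GAA (chr17:80101331-80101630, plus strand): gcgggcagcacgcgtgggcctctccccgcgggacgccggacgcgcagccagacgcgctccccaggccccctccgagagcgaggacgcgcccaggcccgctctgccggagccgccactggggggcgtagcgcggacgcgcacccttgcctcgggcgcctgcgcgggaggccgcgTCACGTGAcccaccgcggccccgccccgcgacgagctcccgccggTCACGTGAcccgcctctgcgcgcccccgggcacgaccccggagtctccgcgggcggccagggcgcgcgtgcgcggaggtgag
MAP1LC3B (chr16:87392086-87392385, plus strand): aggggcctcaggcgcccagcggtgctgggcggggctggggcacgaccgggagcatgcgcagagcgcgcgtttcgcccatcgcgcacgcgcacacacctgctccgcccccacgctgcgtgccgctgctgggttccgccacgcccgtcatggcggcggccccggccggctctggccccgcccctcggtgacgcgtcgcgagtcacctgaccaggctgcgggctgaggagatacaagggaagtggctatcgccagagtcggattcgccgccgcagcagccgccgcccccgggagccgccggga

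Total counts lay between 43498805 (vehicle) and 57442767 (shControl). Genes with a count numbered 18571 in shControl and 18719 in shHDAC6, but 21031 in ACY1215, 21265 in CAY10603 and 22189 in vehicle. The number thus differed by experiment and was highest in the shallowest library. Its part in comparisons across the experiments was not tested. Markers of epithelium and clear cell carcinoma summed to between 985 and 1210 CPM (counts relative to library size, scaled between libraries by TMM), with KRT7 and NAPSA under 1 CPM in all 5 libraries. The sums were at most 2.24 CPM for 6 leukocyte markers, 0.518 CPM for 4 endothelial markers and 0.157 CPM for 4 erythroid markers. The 5 fibroblast markers summed to between 24.8 and 37.4 CPM, nearly all from COL1A2, with ACY1215 and CAY10603 at the upper end, and their part in the results below was not tested. HDAC6 itself (Entrez 10013) stood at 29.2 CPM in shHDAC6, 48.0 in shControl, 33.2 in ACY1215, 48.2 in CAY10603 and 51.1 in vehicle. It was low in the hairpin library and in the ACY1215 library, with log2 folds of -0.72 (95% counting interval -0.81 to -0.63) and -0.62 (-0.71 to -0.53), and close to vehicle in CAY10603 (-0.08, -0.17 to 0.00). An inhibitor binds the enzyme, and its effect is not read from this transcript. Intervals here and below cover counting error only, and reads without molecular identifiers are not independent molecules.

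All 45 genes were transcribed in every library, at 1 CPM or more. Mean levels ran from 2.0 CPM for MCOLN1, a lysosomal cation channel, to 1217 CPM for PSAP, the precursor of the saposins that help degrade sphingolipids, with a median of 61.5 CPM. Per length the median gene stood at percentile 85.8 of genes with counts, and the lowest, MCOLN1, at percentile 48.6. MCOLN1 alone fell short of a mean of 5 CPM, the floor used for pairs of single libraries, so 44 genes entered those pairs and all 45 entered the fits. Its levels were 2.31 CPM in shHDAC6, 2.15 in shControl, 1.96 in ACY1215, 1.80 in CAY10603 and 1.77 in vehicle.

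Spread over the libraries was small. The ratio of the highest to the lowest library had a median of 1.36, the same as for the 10741 genes at the floor, and ran from 1.07 for ATG16L1 to 1.87 for MAP1LC3B. In 9 of the 45 genes it reached 1.5, against 30.6% of all genes, and in 0 it reached 2. The highest library was ACY1215 for 17 genes, shHDAC6 for 14, shControl for 8, vehicle for 4 and CAY10603 for 2. The lowest was shHDAC6 for 15 genes, CAY10603 for 13, vehicle for 9, shControl for 5 and ACY1215 for 3. The hairpin library was often at either end and the ACY1215 library rarely the lowest. These counts were not made over all genes, so they do not set the 45 genes apart from the rest.

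**Figure D1:**
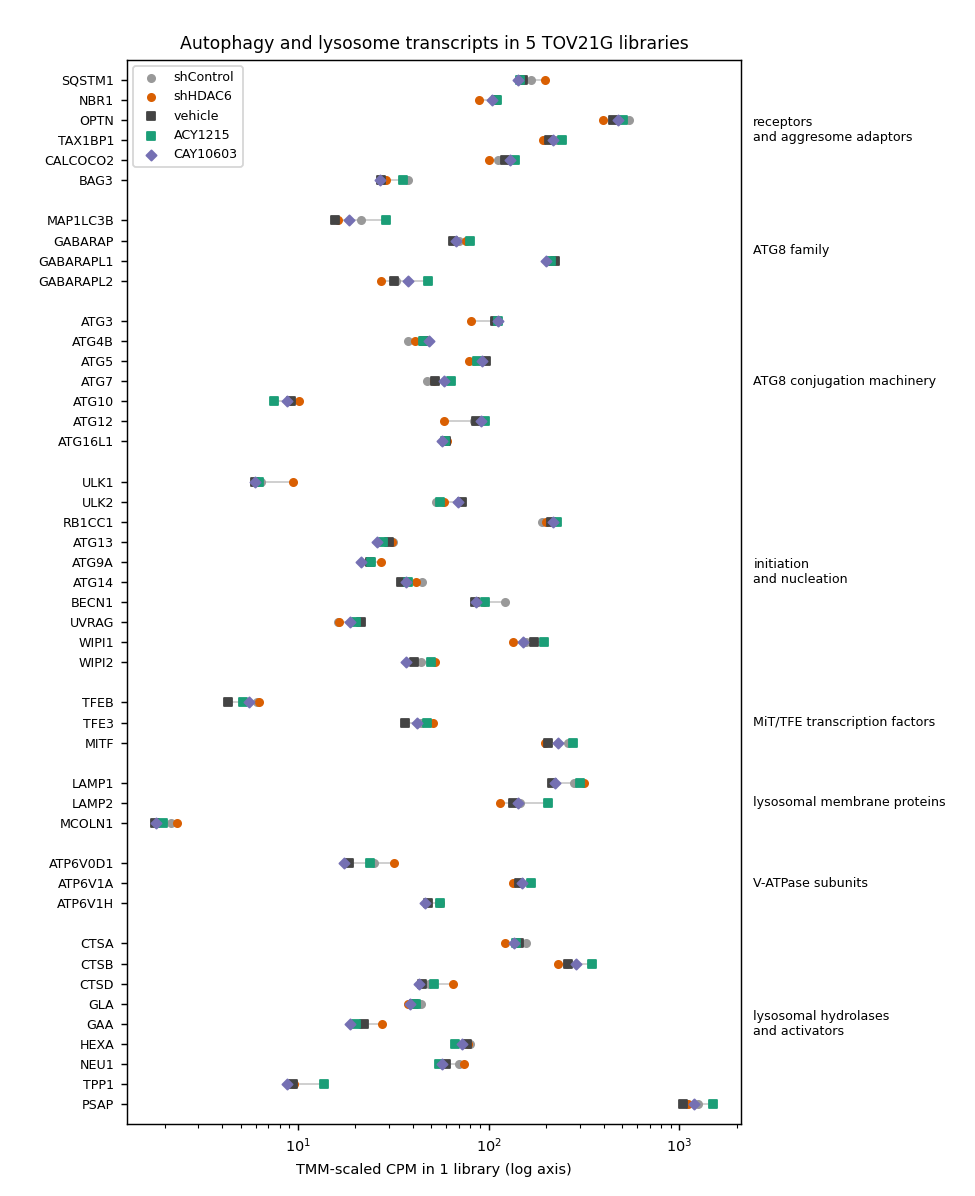
Levels of the 45 transcripts in each of the 5 libraries, as TMM-scaled CPM on a log axis, ordered by role. Points of 1 gene lie close together, with the widest ratio of highest to lowest library at 1.87 (MAP1LC3B) and the narrowest at 1.07 (ATG16L1).

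The first comparison asked which of these transcripts differed between the repressed HDAC6 and control groups, with experiment type held as a covariate. None of the 45 passed, in a comparison in which 0 of 13449 genes did (0%, edgeR quasi-likelihood test, Benjamini-Hochberg adjusted p under 0.05, 2 residual degrees of freedom). The 2 residual degrees of freedom come from the difference between the drugs and from that between the knockdown and drug effects. Differences between treatments are thus part of the error term, and 0 calls do not show that a treatment had no effect. At an unadjusted p under 0.05 the counts were 0 of 45 genes and 100 of 13449 (0.744%). DESeq2 and limma-voom also called 0 genes, with 112 and 122 genes and again 0 of the 45 under 0.05 unadjusted. The pooled log2 folds of the 45 ran from -0.19 (CTSA) to 0.25 (ULK1 and TFE3), with 26 above 0 and a median of 0.02, beside 0.00 for all genes. TFE3, a sister of TFEB, had 0.25 with a standard error of 0.14, and CTSA, a protective protein and carboxypeptidase of the lysosome, had -0.19 with 0.14 (edgeR adjusted p = 1 for both). In bulk samples fewer cells of a type and less RNA per cell cannot be told apart.

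A second test asked whether the knockdown fold differed from the mean fold of the drugs. It called 1 of 13449 genes (0.00744%, edgeR quasi-likelihood test, 1 residual degree of freedom), which is none of the 45, and 0 of the 45 had an unadjusted p under 0.05, as with DESeq2 and limma-voom. The differences ran from -0.59 for GAA to 1.01 for MAP1LC3B. Largest by this measure was MAP1LC3B, at 1.01 with a standard error of 0.52, followed by LAMP2 at 0.74 with 0.40 and MITF at 0.69 with 0.32 (edgeR adjusted p = 0.967 for each). ATG12, at 0.64 with 0.27, had the lowest unadjusted p of the 45, 0.0595 (edgeR adjusted p = 0.967).

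Pairs of single libraries carry no test and no replicate check, and are described by log2 folds of the scaled CPM, computed with 2 prior counts. A gene was counted when at least 1.5-fold apart. Between shHDAC6 and shControl 0 of 44 genes were 1.5-fold higher and 0 lower, against 2.82% and 2.2% of all genes. Above 0 lay 21 (50.7% of all genes). Their folds ran from -0.52 (ATG12) to 0.55 (ULK1), with a median of -0.02 beside 0.00 for all genes. Between CAY10603 and vehicle the counts were 0 and 0 as well (0.344% and 0.698% of all genes), and 21 lay above 0 (51.5% of all genes). The folds ran from -0.25 (GAA) to 0.36 (TFEB) around a median of -0.01, beside 0.01 for all genes. Both medians lay close to 0.

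In ACY1215 more of the genes lay above vehicle than below it. Of the 44, 2 were at least 1.5-fold higher in the ACY1215 library (MAP1LC3B and LAMP2) and 0 lower, against 5.86% and 7.76% of all genes, so the count of 2 lies near the background. What differed from all genes was the direction: 31 of 44 (70.5%) lay above 0, against 5367 of all 10741 genes, and the median was 0.17 beside -0.00. Total-count scaling lowered the median of all genes in this pair by 0.10. With it 25 of 44 (56.8%) lay above 0 against 37.2% of all genes, and the median was 0.06 beside -0.10. The vehicle library took part in this pattern. Set against shControl instead, ACY1215 had 28 of 44 above 0 (47.2% of all genes) and a median of 0.07 beside -0.02 for all genes. In that pair 0 genes were 1.5-fold higher or lower (5.24% and 5.76% of all genes). CAY10603 against shControl had 12 of 44 above 0 (48.6% of all genes) and a median of -0.10 beside -0.01 for all genes. Likewise 0 genes were 1.5-fold apart on either side (3% and 2.36%).

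The controls also differed from each other. Between vehicle and shControl 0 genes were 1.5-fold apart on either side (3.94% and 2.79% of all genes), and 17 of 44 lay above 0 (47.7% of all genes). The median was -0.09 beside -0.01, and the folds ran from -0.52 (BECN1) to 0.45 (ULK2). Setting each intervention against both controls, 23 of the 44 genes in ACY1215 lay above both and 8 below both, against 35.3% and 38.1% of all genes. In shHDAC6 the counts were 16 and 16 (34.3% and 31.6% of all genes), and in CAY10603 they were 9 and 20 (28.2% and 28.1%). Of all 44 genes 0 lay above both controls in every intervention (4.93% of all genes) and 2 lay below both in each, CTSA and GABARAPL1 (4.57%).

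**Figure D2:**
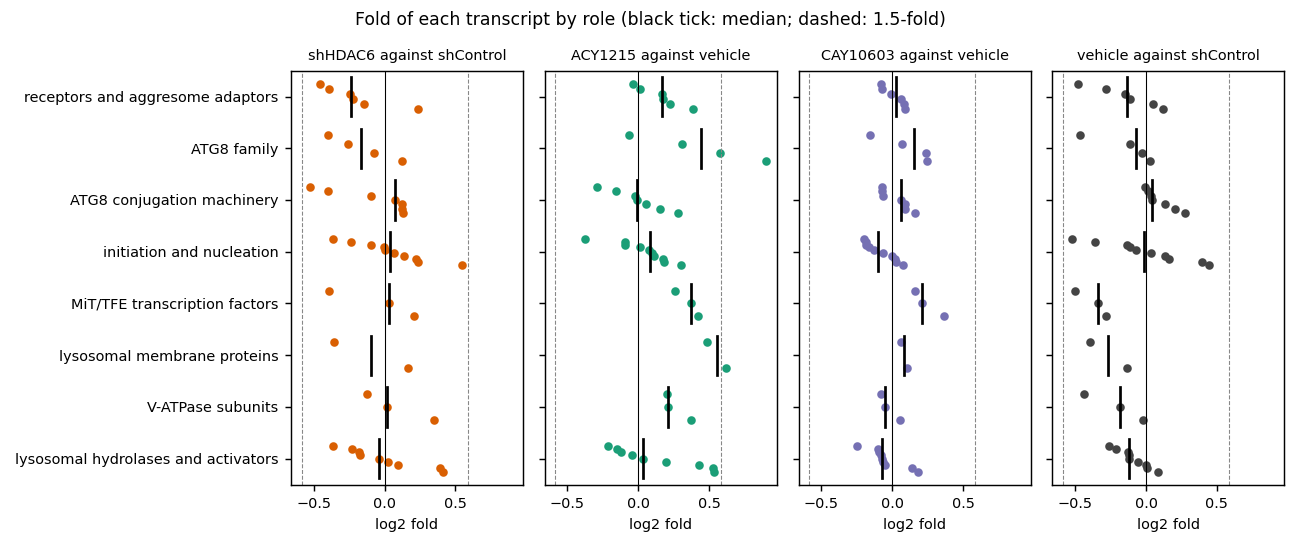
Log2 fold of each transcript with a mean of at least 5 CPM, grouped by role, in 4 pairs of single libraries; black ticks are medians and dashed lines mark 1.5-fold. In ACY1215 against vehicle the points shift to the right in the ATG8 family, the lysosomal membrane proteins and the MiT/TFE factors, with 31 of 44 above 0, whereas CAY10603 points lie between -0.25 and 0.36.

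The ATG8 family holds the proteins that are lipidated onto the autophagosome membrane. MAP1LC3B (Entrez 81631), which encodes LC3B, the usual marker of autophagosomes, stood at 16.3 CPM in shHDAC6, 21.4 in shControl, 29.1 in ACY1215, 18.4 in CAY10603 and 15.6 in vehicle. ACY1215 was thus highest, shControl next, and vehicle lowest, below shHDAC6. The log2 folds were -0.40 (counting interval -0.52 to -0.27) for shHDAC6 against shControl, 0.90 (0.77 to 1.03) for ACY1215 against vehicle and 0.24 (0.10 to 0.39) for CAY10603 against vehicle. Vehicle lay at -0.46 against shControl, so with shControl as the control the ACY1215 fold was 0.44 and the CAY10603 fold -0.22, and with vehicle the shHDAC6 fold was 0.07. A near copy, MAP1LC3B2, had between 0.0868 and 0.269 CPM, so few reads were given to it.

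GABARAPL2 (Entrez 11345), a second ATG8 protein also known as GATE-16, was also highest in ACY1215, at 27.3 CPM in shHDAC6, 32.8 in shControl, 47.8 in ACY1215, 37.7 in CAY10603 and 32.0 in vehicle. Here the controls differed little (-0.03), and ACY1215 lay above both, at 0.58 (0.48 to 0.67) against vehicle, just short of 1.5-fold, and 0.55 against shControl. GABARAP stood between 64.6 CPM (vehicle) and 79.9 (ACY1215), with a fold of 0.12 in shHDAC6, 0.31 in ACY1215 and 0.07 in CAY10603. GABARAPL1, the highest of the family per length at a mean of 136.8 FPKM (MAP1LC3B had 9.66), was the flattest, between 200.3 CPM in CAY10603 and 223 in vehicle. The family median was 0.44 in ACY1215 against vehicle and 0.32 against shControl.

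Receptors and aggresome adaptors tie ubiquitylated cargo to ATG8 proteins. SQSTM1 (Entrez 8878) stood at 196 CPM in shHDAC6, 167 in shControl, 146 in ACY1215, 143 in CAY10603 and 150 in vehicle. It was highest in the hairpin library, at a log2 fold of 0.23 (0.20 to 0.28) against shControl, and slightly below vehicle in both drug libraries (-0.04 and -0.07). The other 5 receptors and adaptors had the opposite sign in shHDAC6. OPTN, optineurin, stood at 400 CPM in shHDAC6, 547 in shControl, 504 in ACY1215, 478 in CAY10603 and 450 in vehicle, a fold of -0.45 for shHDAC6. BAG3, a co-chaperone that directs clients to aggresomes, stood at 28.8 CPM in shHDAC6, 37.8 in shControl, 35.5 in ACY1215, 26.9 in CAY10603 and 27.1 in vehicle. Its shControl and ACY1215 libraries were high and the other 3 low. TAX1BP1, CALCOCO2 (NDP52) and NBR1 had shHDAC6 folds of -0.22, -0.15 and -0.25 and ACY1215 folds of 0.23, 0.17 and 0.01. The group's median was -0.23 in shHDAC6 against shControl, 0.17 in ACY1215 and 0.03 in CAY10603 against vehicle. With the other control it was -0.14, -0.01 and -0.12.

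The conjugation machinery attaches ATG8 proteins to lipid. ATG12, the ubiquitin-like partner of ATG5, stood at 58.2 CPM in shHDAC6, 83.5 in shControl, 95.1 in ACY1215, 91.4 in CAY10603 and 85.8 in vehicle. The shHDAC6 library was lower than each of the other 4, and the controls differed by 0.04. Its fold of -0.52 (-0.59 to -0.46) was the lowest of the 44 genes in that pair. ATG3, the E2-like enzyme of the same system, had the same shape, with 80.4 CPM in shHDAC6 and 106 to 112 elsewhere (fold -0.40). ATG7, the E1-like enzyme that serves both, did not share it, at 51.8 CPM in shHDAC6, 47.5 in shControl, 63.2 in ACY1215, 58.3 in CAY10603 and 52.2 in vehicle. ATG16L1, which targets the complex to membranes, lay between 56.7 and 60.7 CPM. ATG4B, ATG5 and ATG10 had shHDAC6 folds of 0.12, -0.09 and 0.13 and ACY1215 folds of -0.02, -0.16 and -0.29. The group as a whole had medians of 0.07, -0.01 and 0.06 in shHDAC6, ACY1215 and CAY10603.

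Of the initiation and nucleation genes, ULK1, the kinase that starts autophagy, was low throughout (1.35 FPKM on average) and stood at 9.39 CPM in shHDAC6, 6.42 in shControl, 6.25 in ACY1215, 5.94 in CAY10603 and 5.95 in vehicle. It was high in the hairpin library alone, with a fold of 0.55 (0.35 to 0.75), the highest of the 44 in that pair. ULK2, its relative, was high in vehicle (72.2 CPM) and CAY10603 (68.8) and lower in shControl (52.9), ACY1215 (55.6) and shHDAC6 (58.2), which gave -0.38 for ACY1215 against vehicle. BECN1 (Entrez 8678), beclin 1, stood at 94.1 CPM in shHDAC6, 121 in shControl, 95.9 in ACY1215, 85.7 in CAY10603 and 84.4 in vehicle. Only shControl stood apart, and the fold of vehicle against shControl (-0.52, interval -0.58 to -0.46) was larger than that of shHDAC6 (-0.37). BECN1 in shHDAC6 lay 0.16 above vehicle.

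The phosphoinositide effectors WIPI1 and WIPI2 differed between the inhibitors. WIPI1 stood at 133 CPM in shHDAC6, 157 in shControl, 194 in ACY1215, 152 in CAY10603 and 173 in vehicle, and WIPI2 at 52.3, 44.4, 49.8, 36.9 and 40.4 in the same order. The fold of CAY10603 against ACY1215 was -0.36 for WIPI1 and -0.43 for WIPI2. The 5 remaining genes of the group had smaller ACY1215 folds. RB1CC1 (FIP200) and ATG13 had shHDAC6 folds of 0.07 and -0.01, ATG14 of -0.10, UVRAG of 0.01 and ATG9A, a membrane scramblase, of 0.22. In ACY1215 these 5 lay between -0.10 and 0.11. The group's ACY1215 median of 0.09 became -0.02 with total-count scaling.

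TFEB (Entrez 7942) stood at 6.24 CPM in shHDAC6, 6.11 in shControl, 5.16 in ACY1215, 5.55 in CAY10603 and 4.31 in vehicle. Vehicle was the lowest library, at -0.50 (-0.77 to -0.25) against shControl. The folds of TFEB were 0.03 for shHDAC6, 0.26 (-0.01 to 0.54) for ACY1215 and 0.36 (0.09 to 0.64) for CAY10603, and against shControl those of the drugs were -0.24 and -0.14. TFE3 was 51.2 CPM in shHDAC6, 44.4 in shControl, 47.3 in ACY1215, 42.2 in CAY10603 and 36.6 in vehicle, again lowest in vehicle. MITF, the melanocyte factor of the family, was more abundant than either per length (52.4 FPKM on average, beside 15.1 for TFE3 and 2.71 for TFEB). It stood at 198 CPM in shHDAC6, 259 in shControl, 276 in ACY1215, 230 in CAY10603 and 206 in vehicle. All 3 factors lay above vehicle in both drug libraries, with medians of 0.37 and 0.21. All 3 were also lower in vehicle than in shControl, by a median of -0.34, and against shControl the medians were 0.09 and -0.14.

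**Figure D3:**
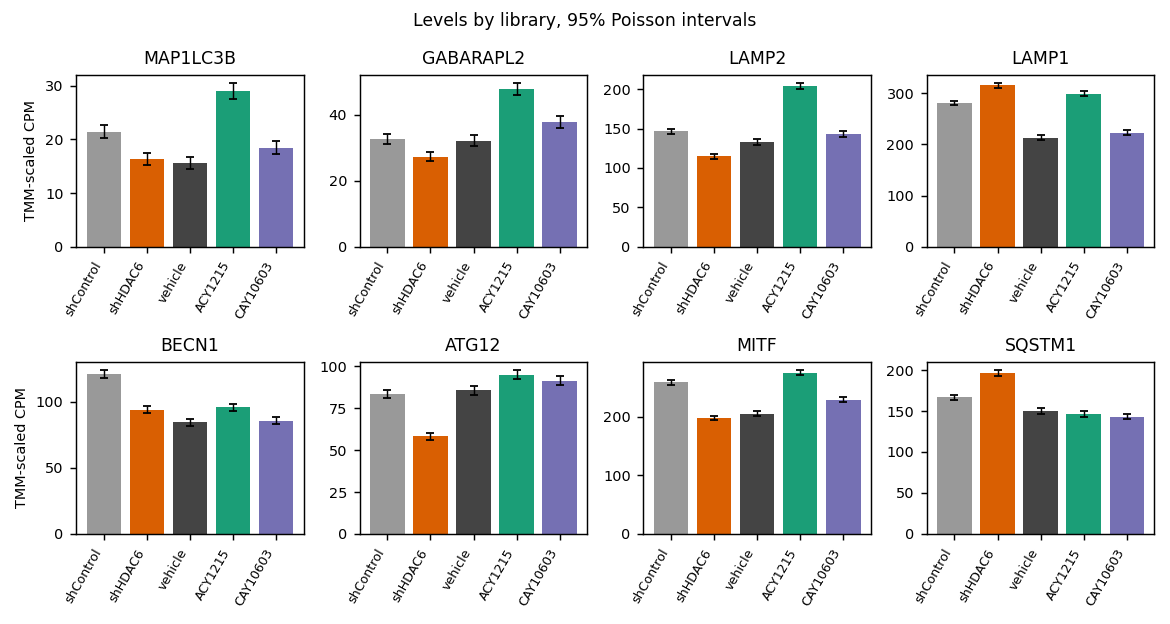
Levels of 8 transcripts by library as bars from 0, in TMM-scaled CPM, with exact 95% Poisson intervals that cover counting error only. MAP1LC3B, GABARAPL2 and LAMP2 are tallest in ACY1215, ATG12 is shortest in shHDAC6 (58.2 CPM), BECN1 is tallest in shControl (121 CPM) and SQSTM1 is tallest in shHDAC6 (196 CPM).

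LAMP1 and LAMP2 are the major glycoproteins of the lysosomal membrane. LAMP2 (Entrez 3920) stood at 115 CPM in shHDAC6, 146 in shControl, 204 in ACY1215, 143 in CAY10603 and 133 in vehicle. ACY1215 was the highest and shHDAC6 the lowest, with folds of 0.62 (0.57 to 0.66) and -0.35 (-0.40 to -0.31), and against shControl ACY1215 lay at 0.48. LAMP1 (Entrez 3916) was 316 CPM in shHDAC6, 281 in shControl, 299 in ACY1215, 223 in CAY10603 and 214 in vehicle. The vehicle and CAY10603 libraries were low and the other 3 high. The fold of ACY1215 was 0.48 against vehicle and 0.09 against shControl, and that of shHDAC6 was 0.17 against shControl and 0.56 against vehicle. LAMP1 thus depended on which control was taken, and LAMP2 in ACY1215 less so.

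The V-ATPase pumps protons into the lysosome. ATP6V0D1, a subunit of its membrane sector, stood at 31.8 CPM in shHDAC6, 24.9 in shControl, 23.9 in ACY1215, 17.4 in CAY10603 and 18.5 in vehicle. As for LAMP1, vehicle and CAY10603 were low, and vehicle lay at -0.43 against shControl. With vehicle as its control, ATP6V0D1 and ULK1 were at least 1.5-fold higher in shHDAC6, 2 of 44 (3% of all genes), and 0 were lower (3.09%). ATP6V1A and ATP6V1H, of the cytosolic sector, had folds of -0.12 and 0.02 for shHDAC6, 0.21 and 0.20 for ACY1215 and 0.05 and -0.05 for CAY10603.

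Lysosomal hydrolases and their activators did not share a highest library. PSAP, the most abundant per length (458.5 FPKM), stood at 1107 CPM in shHDAC6, 1253 in shControl, 1500 in ACY1215, 1185 in CAY10603 and 1044 in vehicle. CTSB, cathepsin B, was 230 CPM in shHDAC6, 259 in shControl, 348 in ACY1215, 286 in CAY10603 and 260 in vehicle. TPP1 (Entrez 1200), a tripeptidyl peptidase, was 13.6 CPM in ACY1215 and between 8.78 and 9.54 in the other 4 libraries. All 3 were highest in ACY1215, at 0.52, 0.42 and 0.54 against vehicle and 0.26, 0.43 and 0.54 against shControl. CTSD, GAA and NEU1 were highest in shHDAC6 instead, and CTSA, GLA and HEXA in shControl.

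CTSD (Entrez 1509), cathepsin D, stood at 64.9 CPM in shHDAC6, 48.8 in shControl, 51.4 in ACY1215, 43.2 in CAY10603 and 44.8 in vehicle. GAA, acid alpha-glucosidase, stood at 27.6 CPM in shHDAC6, 21.1 in shControl, 20.1 in ACY1215, 18.8 in CAY10603 and 22.3 in vehicle. Their shHDAC6 folds were 0.41 (0.34 to 0.48) and 0.39 (0.28 to 0.50), while their CAY10603 folds were -0.05 and -0.25. CTSA, at 122 CPM in shHDAC6, 157 in shControl, 139 in ACY1215, 136 in CAY10603 and 143 in vehicle, was below both controls in every intervention. GLA, HEXA and NEU1, glycosidases of lipid and glycoprotein breakdown, had folds between -0.23 and 0.10 in shHDAC6, -0.21 and 0.03 in ACY1215 and -0.09 and -0.07 in CAY10603. The group's ACY1215 median of 0.03 became -0.07 with total-count scaling, and its CAY10603 median was -0.07 with 7 of 9 below 0.

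ACY1215 and CAY10603 are both described as inhibitors of HDAC6, and their doses and times are not given, so their libraries are set side by side without a test. CAY10603 lay below ACY1215 in 36 of 44 genes, against 5369 of all 10741 genes, with a median of -0.10 beside 0.00 for all genes. It was at least 1.5-fold lower for 2, MAP1LC3B (-0.66, interval -0.78 to -0.54) and TPP1 (-0.63, -0.81 to -0.46), and higher for 0, against 4.47% and 5.91% of all genes. LAMP2 (-0.51), ATP6V0D1 (-0.45), WIPI2 (-0.43) and LAMP1 (-0.42) came next. On the other side ULK2 stood 0.31 higher in CAY10603. All 6 receptors and adaptors and all 4 ATG8 genes were lower in CAY10603 than in ACY1215. Both compounds were compared with the same vehicle library, so their folds share it.

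Sign patterns over the 3 pairs, each with its own control, showed which genes kept a direction there. Lower in shHDAC6 and higher in both drug libraries was the most common pattern, with 14 of 44 genes (31.8%) against 22.5% of all genes, among them MAP1LC3B, GABARAPL2, LAMP2, MITF, ATG12, ATG3, OPTN, PSAP and CTSB. Higher in each of the 3 were ATG7, TFE3, LAMP1, GABARAP, RB1CC1 and TFEB, 6 of 44 (13.6% against 11.6%). Lower in each were CTSA, ATG5, GABARAPL1, ATG13 and HEXA, 5 of 44 (11.4% against 10.8%). Among these 11 genes LAMP1 in ACY1215 (0.48) had the one fold over 0.4 in size. Of the 11, only CTSA and GABARAPL1 lay on the same side of both controls in every intervention.

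Further genes of the pathways, from 5 lists of non-members, gave 0 calls in both tests (24 other autophagy genes, 37 other lysosomal genes, 17 V-ATPase subunits, 7 aggresome genes and 10 of lysosomal nutrient sensing). In the pairs, 35 other lysosomal hydrolases and membrane proteins at the floor lay mostly higher in ACY1215. Against vehicle 27 were above 0, with a median of 0.30, beside 50% and -0.00 for all genes. Against shControl 24 were, with 0.24, beside 47.2% and -0.02. At least 1.5-fold higher than vehicle were 3 of the 35 (5.86% of all genes). LIPA, lysosomal acid lipase, was 45.9 CPM in shHDAC6, 45.2 in shControl, 94.97 in ACY1215, 47.1 in CAY10603 and 44.8 in vehicle. Among genes of the 5 lists at the floor, LIPA was the one at least 2-fold apart from the control of its own experiment. It stood apart in ACY1215 alone (1.08, interval 1.01 to 1.16), where 1.67% of all genes were 2-fold higher and 3.04% lower. ARSB, arylsulfatase B, had 157 CPM in ACY1215, 119 in shControl and 85.7 in vehicle, so its fold of 0.88 shrank to 0.40 against shControl. ARSA had 0.59.

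Other V-ATPase subunits showed the part of the vehicle library more strongly. Of 15, 14 lay above 0 in ACY1215 against vehicle (median 0.22) and 8 against shControl (0.01), while 13 were lower in vehicle than in shControl. ATP6V0C, the proteolipid subunit, had 0.95 against vehicle and 0.17 against shControl. In shHDAC6 TCIRG1 stood at 0.83 and ATP6V1F at -0.88, the widest values of the 5 lists at the floor in that pair, and NAGLU at 0.60. Of all genes 2.82% were 1.5-fold higher there and 2.2% lower. Other autophagy genes at least 1.5-fold higher in ACY1215 were PIK3C3, the lipid kinase VPS34 (0.61), VMP1 (0.66) and FYCO1 (0.72), an adaptor between autophagosomes and kinesin. They made up 3 of 24, beside 5.86% of all genes. None of the 5 lists had a gene at the floor 1.5-fold apart in CAY10603 against vehicle (0.344% of all genes higher and 0.698% lower). STX17 (0.79) and ATP6V0C (-0.79) differed by that much between vehicle and shControl (3.94% of all genes higher and 2.79% lower). Genes at the floor lower in CAY10603 than in ACY1215 by as much were FYCO1, PLEKHM1, CTSL1, SMPD1, LIPA and ATP6V0C, from -0.65 (FYCO1) to -1.01 (LIPA). Of all genes 4.47% were that much lower in this pair. Aggresome genes had 6 of 7 above 0 in ACY1215 against vehicle and 3 against shControl, and nutrient sensing genes 7 and 6 of 10.

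The knockdown folds followed the base composition of the transcripts. Over the 44 genes, the log2 fold of shHDAC6 against shControl and the GC content of the longest coding transcript had a Pearson correlation of 0.64 (Spearman 0.61), beside 0.27 over 9771 of the 10741 genes. In ACY1215 and CAY10603 against vehicle it was -0.03 and -0.16 for the 44 and -0.03 and -0.25 for all genes. The genes share the same 2 libraries in each pair and are not independent points, so no p is given. Of 14 genes with a GC content of 37.5 to 46.1%, 2 lay above 0 in shHDAC6 (median -0.25). Of 14 with 54.7 to 64.2%, 11 did (median 0.19). ATG12, OPTN and ATG3, with the 3 lowest folds, belong to the first, and ULK1, CTSD and GAA, with the 3 highest, to the second. MAP1LC3B (-0.40, 48.7% GC), BAG3 (-0.39, 56.9%) and CTSA (-0.36, 57.7%) were low in shHDAC6 without a low GC content. In CAY10603 against vehicle 11 of the 14 genes of low GC content lay above 0 (median 0.07), and 5 of the 14 of high GC content (-0.03). In ACY1215 against vehicle the counts were 12 (0.16) and 9 (0.135). The part of GC content in these folds was not tested.

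**Figure D4:**
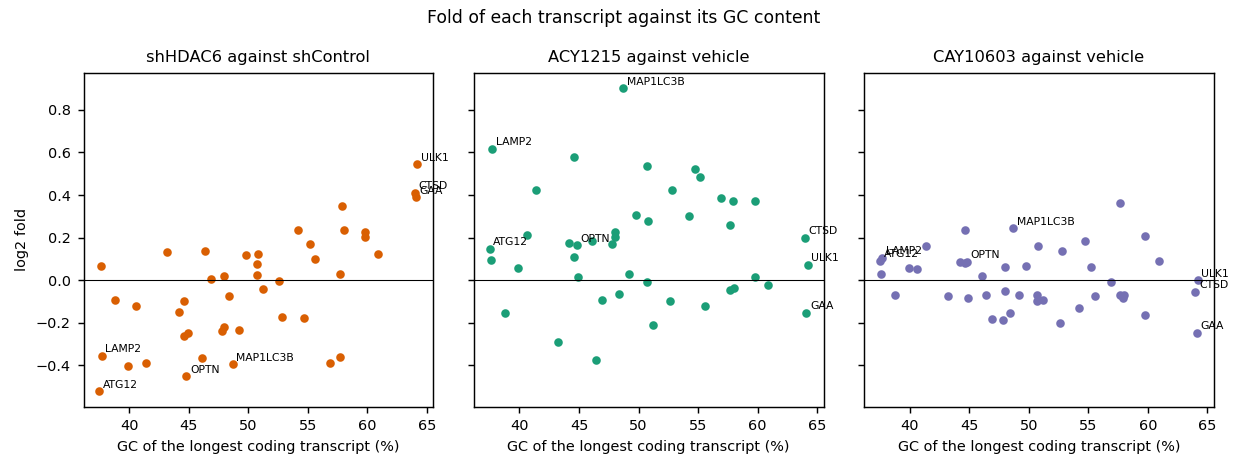
Log2 fold of each transcript (vertical) against the GC content in percent of its longest coding transcript (horizontal), for 44 genes in each of 3 pairs of single libraries. In the shHDAC6 pair the points climb from ATG12 (-0.52) to ULK1 (0.55), with a Pearson correlation of 0.64. In the drug pairs the correlation is -0.03 (ACY1215) and -0.16 (CAY10603).

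Of the 9 genes with an E-box in the promoter, ATG3 (39.9%) and ATG14 (44.6%) have a low GC content and the other 7 lie between 55.2% (LAMP1) and 64.1% (GAA). Transcripts of the 9 stood highest in shHDAC6 for 6 of 9 (LAMP1, MCOLN1, ATP6V0D1, CTSD, GAA and NEU1), against 8 of the 28 genes whose promoter lacks the letters. MCOLN1 is under the floor, NEU1 lay only 0.10 above shControl, and the count was not made over all genes. Of the 8 E-box genes at the floor, 5 lay above 0 in shHDAC6 (median 0.13), 5 in ACY1215 (0.08) and 3 in CAY10603 (-0.06), and the 28 others had medians of -0.04, 0.17 and -0.01. Median GC content was 56.7% for the former and 48.9% for the latter, and its part in the difference was not tested. ATG3 and CTSA hold E-boxes too and were lower in shHDAC6 than in shControl (-0.40 and -0.36), so the letters alone did not go with 1 direction.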

How the data were processed

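RNA was taken with Trizol and sequenced from stranded total RNA libraries, per the labels' protocols, 1 library per treatment. Per the file headers, the authors deposited 2 values per gene and library, an expected count (a whole number throughout) and an FPKM. RSEM 1.2.3, edgeR (version not given) and hg19 appear in the submitters' processing notes without roles. Aligner, annotation and strand setting: not given in the sources used here. DMSO, a column name, was taken for the 1 vehicle sample of the labels. Blank rows (2) were left out, and columns of unknown samples numbered 0. The genes and lists were chosen with earlier results of these data known.

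Counts were scaled by TMM in edgeR 4.0.16 (R 4.3.3). The 13449 genes that reached 1 CPM in 2 or more libraries were tested with the robust quasi-likelihood test, experiment type as covariate, Benjamini-Hochberg at 0.05. DESeq2 1.42.0 and limma 3.58.1 (voom) were alternatives, as were other scalings, filters, prior counts (0.5), controls, FPKM with a pseudocount of 0.1, and leaving out each library. Pairs of single libraries were read for genes averaging 5 CPM or more, with exact Poisson intervals for levels and exact binomial ones for ratios at 95%. The named genes were 7 fixed ones, those at least 1.5-fold apart, those under 5 CPM, and the largest of each pathway list, while others shown illustrate their role group and were chosen with values in view. The replacement of the control for every list was added after seeing the data. GC content came from the GENCODE annotation and promoters from RefSeq GRCh38.p14, another build than the counts, which were joined by symbol. The scripts were tested on simulated data. The value of 1 further gene of a pathway list, which the rule would name, is not reported here.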

Additional observations from a re-analysis of the deposited data

Results flagged for a closer look

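Of 44 genes, 14 (31.8%) were lower in shHDAC6 and higher with both drugs, each against its own control, beside 22.5% of all genes. The reverse held for 7 (15.9%), beside 21.9% of all genes. In 13 genes of these patterns the counting intervals of all 3 folds also excluded 0, a count not made over all genes. Those 13 are given here with the mean drug log2 fold minus the knockdown log2 fold. The interaction test called none of them (edgeR quasi-likelihood test, lowest adjusted p of the 45 genes 0.967), with 1 residual degree of freedom from the pair of drug libraries. The difference was 0.97 for MAP1LC3B, 0.71 for LAMP2, 0.68 for MITF, 0.67 for GABARAPL2 and 0.64 for ATG12. It was 0.58 for OPTN, 0.53 for PSAP, 0.46 for ATG3, 0.45 for CTSB, 0.37 for TAX1BP1, 0.28 for CALCOCO2 and 0.25 for ATP6V1A. Among the 13, GAA alone had the opposite order, at -0.59, being higher in shHDAC6 than in shControl (0.39) and lower than vehicle in both drug libraries (-0.15 and -0.25). The drug folds share the vehicle library and each control differs between the experiments, so the signs of 1 gene are not independent. Smaller folds of the list, such as those of ATG3 in the drug libraries (0.06 and 0.06), lie only just outside counting error.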

How the results depend on the processing

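No paired analysis was possible because each treatment has 1 library and the replicate numbers only name the libraries. The pooled comparison called 0 genes, beside 4 without ACY1215 and 0 without CAY10603, and 0 of the 45 genes in each. Without shControl, vehicle or shHDAC6, the experiment type term reduces the contrast to 1 experiment with 1 control library. Those fits are therefore not versions of the pooled comparison. Neither the scaling, the filter, the tool nor dropping the experiment type changed the count of 0 members. The test of knockdown against drugs called 5 genes with no filter on low counts, 8 with DESeq2 and 0 with limma-voom, beside 1, and 0 of the 45 genes in each. With vehicle as control, 2 genes were 1.5-fold higher in shHDAC6, beside 0. For ACY1215 the count of 2 became 1 with total-count scaling, 1 with the authors' FPKM, 0 with shControl as control and 0 at 2-fold, and the median of 0.17 became 0.064, 0.065 and 0.072 under the first 3 of these. The median in CAY10603 became -0.1 with shControl as control. Of the other values, 33 of single genes moved beyond their counting interval and 81 did not. The 81 include the setting with another floor, which cannot change a fold. They also include the other prior count, which left the folds the same to the digits kept. Only MAP1LC3B and LAMP2 in ACY1215 had been 1.5-fold apart, and neither changed sign. With the other control, which was tried for each of 44 genes, the sign of the fold turned for 12 in shHDAC6, 13 in ACY1215 and 15 in CAY10603, examples being MAP1LC3B (0.07) and BECN1 (0.16) in shHDAC6, TFEB (-0.24) in ACY1215 and LAMP1 (-0.33) in CAY10603. With 1 library per treatment the spread between cultures is unknown, and counting error, small at these depths, does not measure it.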
